A study of Gallus gallus with 6 samples.

Results

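The 10 genes described here encode Ki-67 and a group of spindle and cytokinesis proteins: MKI67, NUSAP1, CKAP2, FAM83D, ASPM, PRC1, RACGAP1, ECT2, ANLN and CEP55. They were found by exact symbol in the platform's annotation, which gave 24 of the 38382 probe sets analysed and 10 of the 13009 genes with a symbol. The group was selected on the 72 hr values of these same arrays, so its differences at 72 hrs are given as a description and not as a test. The comparison of 48 hrs with control uses the same control arrays, so it is not independent of that choice either.

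A dividing cell separates its chromosomes on a spindle of microtubules and is then split by a ring of actin and myosin. The overlapping microtubules left between the separating chromosomes form the central spindle, which places the ring, and the last bridge is cut at the midbody by the ESCRT-III machinery. In the undamaged chick basilar papilla (BP), the hearing epithelium of birds, supporting cells (SCs) are quiescent. When hair cells (HCs) are killed, SCs re-enter the cell cycle or convert directly into HCs. The roles of the proteins given below are known mainly from mammalian cells.

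RNA was taken from the basal part of the BP of wild type chicks, 12 to 16 days old, in 3 groups of 2 arrays: untreated, age-matched controls, chicks 48 hrs after gentamicin and chicks 72 hrs after gentamicin, an antibiotic that kills HCs. Each array was hybridised with RNA pooled from several chicks, so the spread between the arrays of a group is that between pools. The titles number the arrays of a group as replicates 1 and 2, and these numbers are used here, although in the source names all 4 control and 48 hr arrays carry the number 2. The values are intensities of the Affymetrix chicken array on a linear scale, given below as log2, so that a difference of 1 is a doubling.

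The arrays had close median intensities, from 26.47 to 30.10, and 51.7% to 54.4% of the probe sets on an array lay under 32, where values of dim genes vary most. The tissue was checked against its markers: the SC genes GJB6 and TECTB and the HC gene CALB1 were bright on all 6 arrays, with log2 intensities from 13.10 to 13.58. These were the brightest of their lists. Of the measured markers, 17 of 20 HC genes and 15 of 16 SC genes had a mean above the median probe set. The HC gene ATOH1 (3.11) and the SC gene LGR6 (3.92) were among those below it. Markers of other cell types were often above this median too. These were 9 of 11 glia and neuron, 10 of 14 connective tissue and 12 of 18 leukocyte genes. For endothelium it was 5 of 11 and for erythrocytes 3 of 10, so such counts do not by themselves identify the tissue. HINTW, a gene of the W chromosome that females carry, had log2 intensities from 10.79 to 11.60 on the control and 48 hr arrays but 3.72 and 3.93 on the 72 hr arrays. Sex make-up of the pools and time therefore cannot be told apart at 72 hrs. None of the 10 genes is placed on Z or W in the chicken assembly GRCg7b.

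At 72 hrs after gentamicin, 7 of the 10 genes were higher than in control on both arrays, by log2 fold changes from 2.42 to 4.73. They were MKI67, 4 spindle genes (NUSAP1, CKAP2, FAM83D and ASPM), the central spindle gene PRC1 and the ring gene ANLN. These values are those of each gene's brightest probe set. ECT2, RACGAP1 and CEP55, which act in cytokinesis, had differences of 0.45 to 0.55 with overlapping arrays in that probe set, while each had a dimmer one with both 72 hr arrays above both controls. Those dimmer probe sets were under 32 on all 6 arrays. By the brightest probe set, the share of all 13009 genes with both 72 hr arrays above both controls was 15.9%. With the mean over a gene's probe sets, all 10 genes had both 72 hr arrays above both controls. No share of all genes was computed for that mean, in which dim probe sets count as much as bright ones. By the fold rule of the study (log2 fold change over 0.6) the same 7 genes passed, beside 9.28% of all genes. By limma with Benjamini-Hochberg adjustment over all probe sets, 3 of the 24 probe sets were called higher, those of MKI67, CKAP2 and FAM83D, beside 0.0469% of all probe sets. None of these calls was made with values under 32 set to 32, without the intensity trend of limma, or with any 1 of the 6 arrays left out. These counts restate the comparison on which the genes were chosen.

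The median log2 fold change of the 10 genes at 72 hrs was 2.65, against 0.01 over all genes. It was 3.20 between the replicate 1 arrays and 2.38 between the replicate 2 arrays. Whether more cells held these transcripts or each cell held more of them cannot be told apart in this bulk RNA.

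MKI67 encodes Ki-67, a protein of cycling cells that coats mitotic chromosomes and keeps them apart. The log2 intensities of its probe set were 2.47 and 3.65 in control, 1.91 and 2.62 at 48 hrs, and 8.29 and 7.29 at 72 hrs. The 4 control and 48 hr arrays were low and both 72 hr arrays were high, with a gap wider than the spread within any group. The difference at 72 hrs was 4.73 (SE 0.57, n = 2), or 26.6-fold. Because the control values lay far below 32, the size of this fold depended on dim values: with all values under 32 set to 32, the log2 fold change was 2.79.

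Of the spindle genes, NUSAP1 encodes a protein that binds and bundles microtubules around chromosomes. It was at 2.97 and 4.17 in control, 4.42 and 4.51 at 48 hrs, and 7.63 and 6.90 at 72 hrs. The 3 groups did not overlap and stood in the order of time, with 48 hrs close above the higher control array and 72 hrs clearly above both. The 72 hr difference was 3.70 (SE 0.48).

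CKAP2 encodes another spindle protein, which promotes microtubule growth and is degraded at the end of mitosis. Its values were 4.77 and 4.78 in control, 5.52 and 5.08 at 48 hrs, and 9.00 and 8.23 at 72 hrs, with a 72 hr difference of 3.84 (SE 0.35). The control arrays agreed to 0.01, and the groups again did not overlap. Both NUSAP1 and CKAP2 are read by a single probe set with the suffix _s_at, which on this platform marks probes shared by more than 1 transcript. The brightest probe sets of ECT2 and RACGAP1 carry the same suffix, as do some dimmer ones of ANLN, RACGAP1, CEP55 and ASPM.

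FAM83D encodes a spindle protein that brings the kinesin KIF22 and casein kinase 1 to the spindle. Its brightest probe set was at 4.23 and 5.09 in control, 4.59 and 4.54 at 48 hrs, and 7.87 and 8.16 at 72 hrs. The 48 hr arrays lay between the controls, and the 72 hr arrays stood above them by 3.35 (SE 0.37). A dimmer probe set of FAM83D had overlapping groups, at 2.33 and 4.0 in control and 2.23 and 4.63 at 72 hrs.

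ASPM encodes a protein that focuses microtubules at the spindle poles, known in humans for its role in brain size. Its brightest probe set was at 2.27 and 2.28 in control, 3.54 and 3.19 at 48 hrs, and 5.37 and 4.77 at 72 hrs. The groups did not overlap and stood in the order of time, but 5 of the 6 arrays were under 32 (a log2 of 5). The 72 hr difference was 2.80 (SE 0.48), but it was 0.19 with values under 32 set to 32, 1.07 with a floor of 16 and 0.58 with the mean over its probe sets. The other 5 probe sets of ASPM were under 32 on all 6 arrays, and none had both 72 hr arrays above both controls. A further probe set, listed as ASPM by the study but not in the annotation used here, did not show this order of time. It differed from control by -0.05 at 48 hrs and by 3.33 at 72 hrs.

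**Figure D1:**
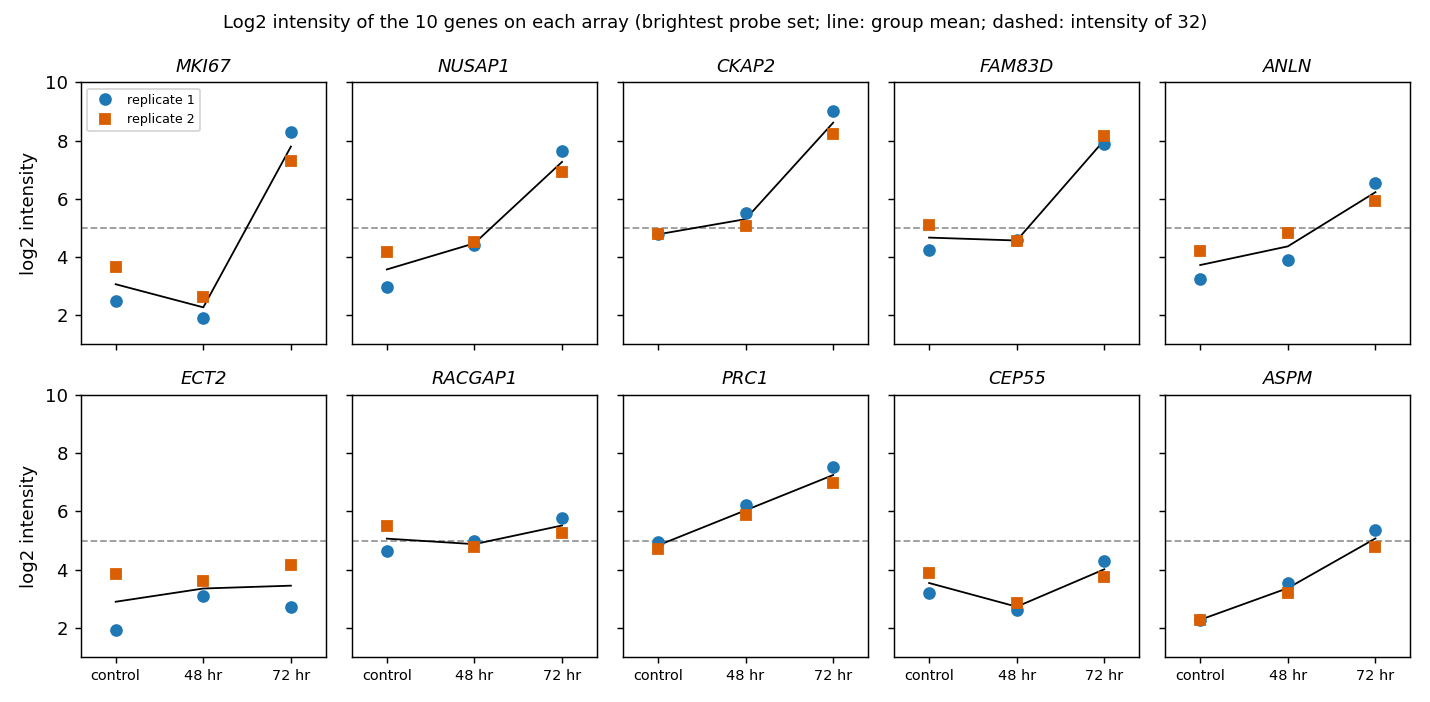
Log2 intensity of the 10 genes on each of the 6 arrays, 1 panel per gene, for the brightest probe set: points are replicates 1 and 2, the line joins the group means and the dashed line marks an intensity of 32. In 7 panels both 72 hr points lie above both control points, while those of ECT2, RACGAP1 and CEP55 overlap with control.

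Of the central spindle genes, PRC1 encodes the protein that cross-links antiparallel microtubules in the spindle midzone. It was at 4.96 and 4.70 in control, 6.21 and 5.87 at 48 hrs, and 7.52 and 6.98 at 72 hrs. Of the 10 genes PRC1 had the largest difference at 48 hrs and the smallest error, and its 3 groups did not overlap. The differences were 1.21 at 48 hrs and 2.42 at 72 hrs, each with an SE of 0.33.

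RACGAP1 encodes a subunit of centralspindlin, which bundles midzone microtubules and binds ECT2. Its brightest probe set was at 4.64 and 5.49 in control, 4.99 and 4.76 at 48 hrs, and 5.79 and 5.25 at 72 hrs. The second control array lay above the second 72 hr array, so the groups overlapped and the difference of 0.45 (SE 0.42) was close to its error. A dimmer probe set of RACGAP1 was at 2.80 and 2.88 in control and 4.44 and 3.73 at 72 hrs, and a further one overlapped.

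ECT2 encodes the exchange factor that switches on RhoA to build the ring. It was under 32 on all 6 arrays with both of its probe sets, so its level was poorly measured. The brighter one was at 1.94 and 3.85 in control, 3.09 and 3.61 at 48 hrs, and 2.73 and 4.16 at 72 hrs. The spread between the controls (SD 1.35) was larger than the 72 hr difference of 0.55 (SE 0.78). The dimmer one was at 0.00 and 0.32 in control, 3.01 and 2.93 at 48 hrs, and 3.30 and 1.13 at 72 hrs.

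ANLN encodes anillin, a scaffold that ties actin, myosin, septins and RhoA together in the contractile ring. Its brightest probe set was at 3.23 and 4.20 in control, 3.89 and 4.83 at 48 hrs, and 6.53 and 5.92 at 72 hrs. The 48 hr arrays overlapped with control and the 72 hr arrays did not, with a difference of 2.51 (SE 0.51). A second probe set was at 2.83 and 3.71 in control and 6.63 and 6.36 at 72 hrs, and the third was at 3.82 and 2.74 in control and 5.32 and 5.39 at 72 hrs. All 4 probe sets of ANLN had both 72 hr arrays above both controls, by log2 fold changes from 0.48 to 3.22.

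CEP55 encodes the midbody protein that recruits ESCRT proteins for the final cut. All of its 3 probe sets were under 32 on all 6 arrays. The brightest was at 3.18 and 3.89 in control, 2.60 and 2.85 at 48 hrs, and 4.28 and 3.74 at 72 hrs. Its 48 hr arrays lay below both controls while its 72 hr arrays overlapped with them. A dimmer one was at 1.25 and 1.45 in control, 2.23 and 2.16 at 48 hrs, and 3.91 and 3.23 at 72 hrs, in the order of time and without overlap. The third was at 2.06 and 2.41 in control, 2.59 and 2.85 at 48 hrs, and 2.26 and 2.11 at 72 hrs, where it overlapped with control. The probe sets of CEP55 therefore differed in direction at 48 hrs, the brightest being lower and the dimmer ones higher.

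**Figure D2:**
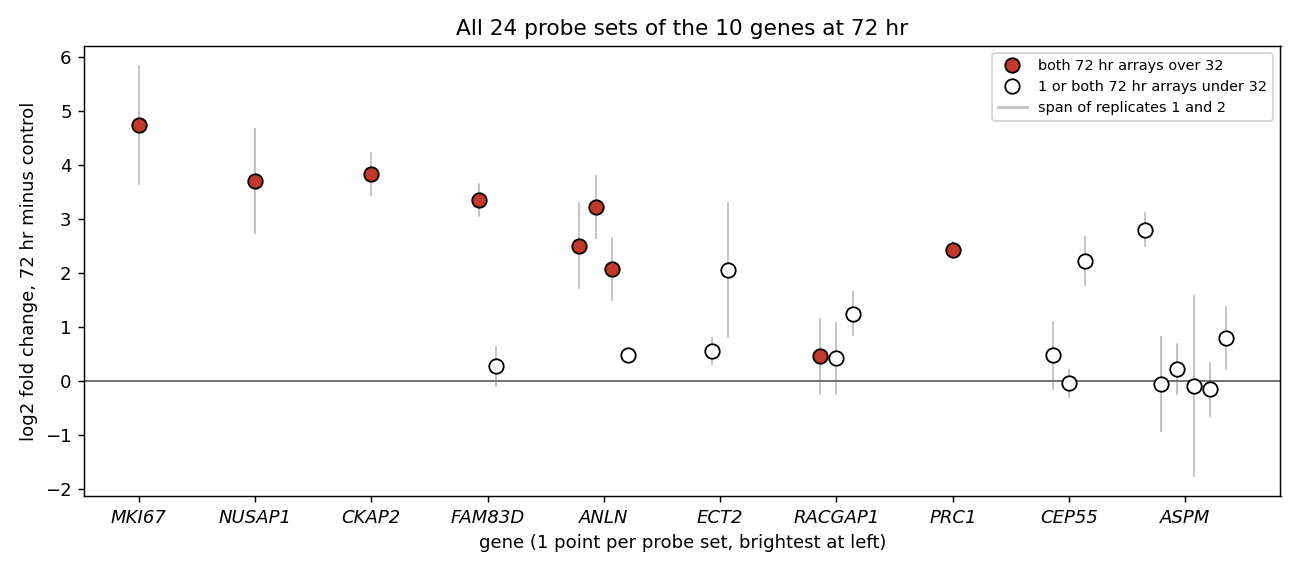
Log2 fold change at 72 hrs over control for each of the 24 probe sets, placed by gene with the brightest at left: the bar spans the replicate 1 and replicate 2 differences, and filled points have both 72 hr arrays over 32. The 6 genes with filled points above 2 are MKI67, NUSAP1, CKAP2, FAM83D, ANLN and PRC1, and most open points lie under 1.

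Of the 24 probe sets, 13 had both 72 hr arrays above both controls, beside 17.2% of all probe sets. Of the 24, 13 were under 32 on all 6 arrays. Only 6 of the 24 had a mean log2 intensity above the median of all probe sets (4.76). In the controls, 8 of the 10 genes were under 32 on both arrays, and at 72 hrs 7 of the 10 were over 32 on both. MKI67, NUSAP1, CKAP2, ANLN and PRC1 were under 32 on both control arrays and over 32 on both 72 hr arrays. With values under 32 set to 32, the 72 hr difference was 2.26 for NUSAP1 and 1.22 for ANLN, and it was 3.61 for CKAP2, 2.97 for FAM83D and 2.25 for PRC1. With the mean over its probe sets, the difference of FAM83D was 1.81.

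By 48 hrs after gentamicin, the study states, most damaged HCs have left the epithelium. At that time none of the 24 probe sets was called different from control by limma, and the adjusted p was 1 for each. The background was the same: 0% of the 38382 probe sets were called higher. Without adjustment, 3 of the 24 and 1039 of all probe sets had p under 0.05. The 3 were PRC1 (unadjusted p = 0.0065 by limma) and 2 dim probe sets of ECT2 and ASPM, which were under 32 on all arrays.

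In size, 4 genes passed the fold rule upward at 48 hrs, against 6.82% of all genes: NUSAP1 at 0.90 (SE 0.48), ANLN at 0.64 (SE 0.51), PRC1 at 1.21 (SE 0.33) and ASPM at 1.09 (SE 0.48). MKI67 at -0.79 (SE 0.57) and CEP55 at -0.81 (SE 0.51) passed it downward, beside 5.29% of all genes. With values under 32 set to 32, PRC1 still passed, at 1.04, and the differences of NUSAP1, ANLN, ASPM, MKI67 and CEP55 were 0, since all their control and 48 hr arrays lay under it. With the mean over its probe sets, CEP55 was at 0.17. NUSAP1, CKAP2, PRC1 and ASPM had both 48 hr arrays above both controls, beside 15.7% of all genes. The further probe set that the study lists as ASPM was at -0.05 at 48 hrs. CKAP2 was at 0.52 (SE 0.35). ECT2 at 0.46 (SE 0.78), FAM83D at -0.10 (SE 0.37) and RACGAP1 at -0.19 (SE 0.42) differed by less than their errors.

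The median log2 fold change of the 10 genes at 48 hrs was 0.49, but it was 0.70 between the replicate 1 arrays and 0.03 between the replicate 2 arrays, and -0.17 when the control replicate 1 array was left out. The direction of the group at 48 hrs rested on that array.

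**Figure D3:**
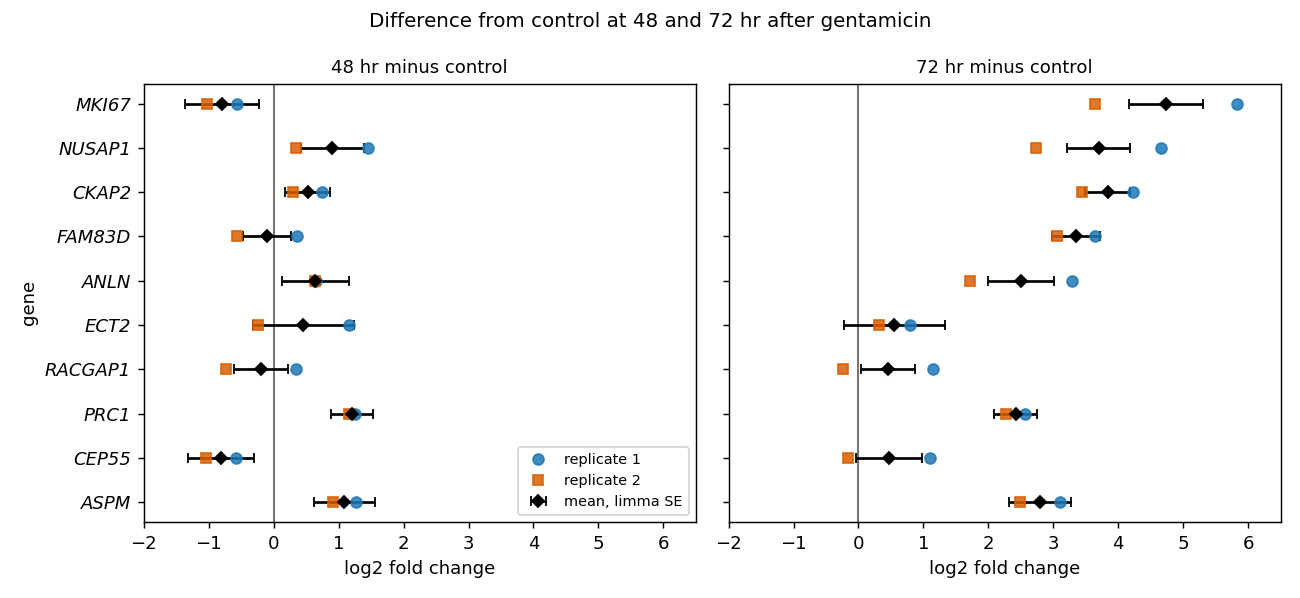
Log2 fold change of the 10 genes at 48 hrs (left) and 72 hrs (right) over control: diamonds are the differences of group means with limma's SE, and circles and squares are the differences between the replicate 1 and between the replicate 2 arrays. At 48 hrs the genes lie on both sides of 0, from -0.81 to 1.21, and at 72 hrs the means lie from 0.45 to 4.73.

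Between 48 and 72 hrs, 9 of the 10 genes had both later arrays above both earlier ones, with ECT2 as the exception, beside 14.3% of all genes. The same 9 passed the fold rule, beside 7.74%. MKI67 had a log2 difference of 5.53 (46.1-fold), the largest of all 13009 genes, which rested on 48 hr values far under 32. With values under 32 set to 32 it was 2.79, below CKAP2 at 3.32 and FAM83D at 3.01. Without that floor, FAM83D, CKAP2 and NUSAP1 followed MKI67 among the 10 genes at 3.45, 3.32 and 2.80. RACGAP1 and CEP55 were at 0.64 and 1.29, more than over control, because their 48 hr means lay below the control means. Limma called 3 of the 24 probe sets higher, those of MKI67, CKAP2 and FAM83D, beside 0.0208% of all, and these calls were lost under the same alternatives as those over control. This comparison shares the 72 hr arrays with the one on which the genes were chosen and is given as a description.

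PRC1, the gene whose 48 hr arrays were both over 32 and above both controls by the most, differed by 1.21 both from control to 48 hrs and from 48 to 72 hrs. CKAP2, the other gene over 32 on both 48 hr arrays, differed by 0.52 and then by 3.32. Whether these steps differ between genes was not tested.

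Over the 6 arrays, the profile of each of the 10 genes was set beside the mean of the others. The Pearson r of each gene with the mean of the other 9 was 0.99 for NUSAP1, 0.96 for FAM83D and ANLN, 0.95 for MKI67, 0.94 for CKAP2, 0.89 for ASPM and 0.81 for PRC1. It was 0.75 for RACGAP1, 0.67 for CEP55 and 0.27 for ECT2. These values describe 6 arrays in 3 groups and rest mostly on the 72 hr arrays. The genes were selected on the values of those arrays, so high r values are a description and not a test.

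Among 328 other genes that were brighter than the median probe set and spanned at least 2 log2 units, those with the profile most like the mean of the 10 genes were INCENP (r = 0.993), AURKB (r = 0.991), KIF23 (r = 0.989), TPX2 and KIF11 (both r = 0.982), MASTL (r = 0.978), SMC4 (r = 0.974) and TOP2A (r = 0.973). INCENP and AURKB are subunits of the chromosomal passenger complex, KIF23 is the partner of RACGAP1 in centralspindlin, and TPX2 and KIF11 build the spindle. MASTL is a mitotic kinase, and SMC4 and TOP2A act on chromosome structure. At 48 hrs these 8 genes were at log2 fold changes from 0.06 to 0.51, and at 72 hrs from 2.00 to 3.41. They were picked for a profile that is high at 72 hrs, so these values follow from the choice and are a description. INCENP, AURKB, KIF23, TPX2 and KIF11 return in the lists below, where they are the same values.

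Other genes of the same machinery were read from 5 lists that leave out the 10 genes. In the central spindle and chromosomal passenger list, 12 of 16 genes were measured, and only 6 of these were brighter than the median probe set. Of the 12, 8 had both 72 hr arrays above both controls, beside 15.9% of all genes. The median difference of the list was 0.08 at 48 hrs and 1.34 at 72 hrs on the log2 scale. At 72 hrs 7 genes passed the fold rule upward, beside 9.28% of all genes. BIRC5 and KIF20A, under 32 on all 6 arrays, were at -0.03 and 0.06 at 72 hrs. They are named after their values were seen. AURKB, the kinase of the passenger complex, was called by limma at 72 hrs. Without the intensity trend of limma no probe set was called in this comparison, so that call was lost. AURKB was at 4.21 and 4.99 in control, 4.96 and 5.22 at 48 hrs, and 8.02 and 7.57 at 72 hrs. KIF23 was at 4.19 and 5.04 in control, 4.51 and 4.83 at 48 hrs, and 7.51 and 7.33 at 72 hrs, unlike the brightest probe set of its partner RACGAP1. INCENP and KIF20B, a midzone kinesin, were at 2.51 and 1.55 at 72 hrs.

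The GTPase RHOA, which is switched on by ECT2, was bright and even, from 11.86 to 12.10 on all 6 arrays, and NET1, another RhoA exchange factor, was at 0.55 at 72 hrs. The largest 72 hr difference of this list was that of PLK1, the mitotic kinase that promotes the binding of ECT2 to RACGAP1, which is named here after its value was seen. It was at 2.68 and 3.08 in control, 2.32 and 1.99 at 48 hrs, and 7.28 and 6.02 at 72 hrs, a difference of 3.77 that limma did not call.

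Of the spindle assembly list, 45 of 51 genes were measured, with medians of 0.01 at 48 hrs and 0.21 at 72 hrs. At 72 hrs 14 passed the fold rule upward, beside 9.28% of all genes, and none downward. Limma called 1, the kinesin KIF11, which pushes the spindle poles apart. That call, too, was lost without the intensity trend of limma. KIF11 was at 3.23 and 3.76 in control and 7.02 and 6.60 at 72 hrs. TPX2, which starts microtubules near chromosomes, was at 2.54, the spindle protein DLGAP5 at 1.98 and the kinetochore protein KNSTRN at 1.30. In contrast, CKAP5, a microtubule polymerase, and TUBGCP4, a part of the microtubule-nucleating ring, were at -0.33 and -0.17, so the list did not move as a whole.

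The other 3 lists had medians near 0. Of the contractile ring and septin genes 19 of 30 were measured, with medians of 0.09 at 48 hrs and 0.03 at 72 hrs. Of the 19, 2 passed the fold rule at 72 hrs, SEPTIN9 at 1.06 and SEPTIN11 at 0.68. That share is close to the 9.28% of all genes. SEPTIN9 was at 7.62 and 7.64 in control, 8.15 and 8.12 at 48 hrs, and 8.21 and 9.17 at 72 hrs. The myosin heavy chain MYH9 was at 0.49 (SE 0.43) with arrays that overlapped with control, and SEPTIN6 was at 0.36 (SE 0.20). The myosin light chain MYL9 and the kinase ROCK2 were at -0.17 (SE 0.45) and -0.26 (SE 0.50).

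Of the abscission and ESCRT-III genes 32 of 34 were measured. Their medians were -0.01 at both times, and at 72 hrs none passed the fold rule upward and 1 passed it downward. EXOC8, BICC1, VPS4A and CHMP4C were at 0.38, 0.36, 0.30 and 0.24, and IST1 and EXOC6 at -0.28 and -0.37. BICC1 is an RNA-binding protein, VPS4A is the ATPase that takes ESCRT-III apart, CHMP4C and IST1 belong to that machinery, and EXOC6 and EXOC8 are subunits of the exocyst. The highest 48 hr difference in the 5 lists, 2.22, was that of CHMP2B, which was under 32 on all 6 arrays and is named after its value was seen.

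For the perichromosomal layer and the nucleolus, the sites of Ki-67, 17 of 21 genes were measured, with medians of 0.09 and 0.01. UBTF, a factor for rRNA transcription, was at 0.77 (SE 0.47) at 72 hrs, with 6.17 and 5.70 in control and 6.02 and 7.40 at 72 hrs. Its groups thus overlapped. The nucleolar proteins NOLC1, PES1 and NOP2 were at 0.31, 0.31 and 0.25. The helicase DDX21 and the ribosome assembly factor WDR12 were at -0.28 and -0.63. Limma called no gene of the 5 lists at 48 hrs against control or between 48 and 72 hrs.

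**Figure D4:**
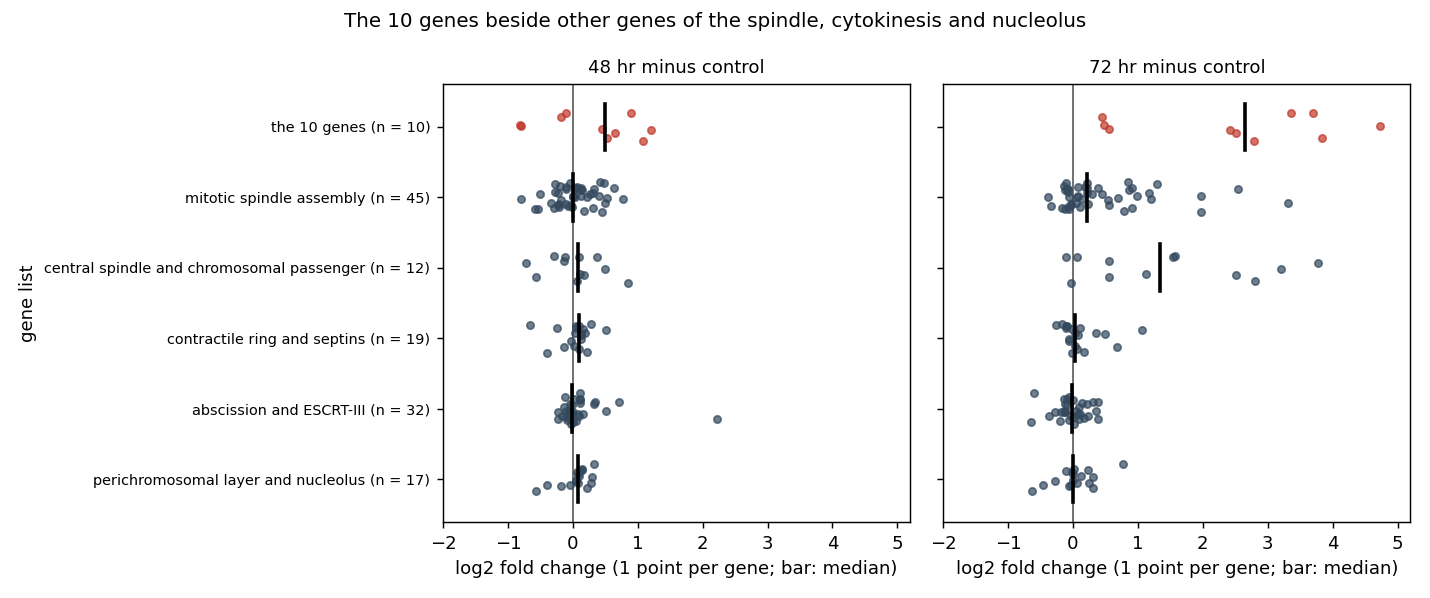
Log2 fold change at 48 hrs (left) and 72 hrs (right) over control for the 10 genes (top row) and for the measured genes of the 5 lists, 1 point per gene with a bar at the median. At 72 hrs the median is 2.65 for the 10 genes, 1.34 for the central spindle and passenger list, 0.21 for spindle assembly and within 0.03 of 0 for the other 3 lists.

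Markers of other cell types were summed on the linear scale beside the 72 hr result. Such a sum rests mostly on the brightest genes, CALB1 in the HC list and GJB6 and TECTB in the SC list. The sum of 20 of 24 HC genes was 15142 to 16311 in control and 15206 to 17475 at 72 hrs, and that of 16 of 18 SC genes was 40163 to 41396 and 39772 to 39929. Of single HC genes at 72 hrs, KCNMA1 (0.92, SE 0.84) and TMC2 (0.88, SE 0.89) passed the fold rule upward, but their arrays overlapped with control. CHRNA9 (-1.26, SE 0.30) and LHFPL5 (-0.62, SE 0.23) passed it downward, with both 72 hr arrays below both controls. Of the SC genes only HES5 passed it, at -0.92. The 18 of 23 leukocyte genes summed to 1827 to 2250 in control and 1395 to 1474 at 72 hrs. The 10 of 19 erythrocyte genes summed to 228 to 1095 and 289 to 787, and the 14 of 15 connective tissue genes to 2016 to 5067 and 2234 to 2422. Glia and neuron genes (11 of 16) were at 6365 to 7880 and 7857 to 8006, and endothelium genes (11 of 11) at 304 to 594 and 295 to 372. None of the 7 lists had both 72 hr sums above both control sums, while the SC and leukocyte lists had both below. The leukocyte sum rested mostly on CD3E and NCF4 in control, which were at -0.43 (SE 0.24) and -2.74 (SE 1.06) at 72 hrs. By single gene, 4 of the 18 leukocyte genes had both 72 hr arrays below both controls, and 3 had both above. For the 16 SC genes these counts were also 4 and 3. Whether the cell make-up differed between the groups was not tested.

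RNA quality differed between the arrays. The log2 gap between the 3' and 5' probe sets of GAPDH was 2.46, 3.0 and 2.05 on the replicate 1 arrays of control, 48 hrs and 72 hrs, and 3.31, 4.97 and 4.58 on the replicate 2 arrays. The gap was wider on replicate 2 in each group, the replicate in which the median 72 hr difference of the 10 genes was smaller. The part of RNA quality in these values was not tested.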

How the data were processed

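Biotin-labelled cRNA from pooled BP was hybridised to the Affymetrix GeneChip Chicken Genome Array, 1 array per pool. The intensity values were deposited by the authors on a linear scale, 1 per probe set and array. The methods describe normalization in dChip, while MAS5 stands in the submitters' processing notes, so which of them made these values is not settled. Log2 was taken without another normalization. Of 38535 probe sets, 153 control probe sets were left out. The number of arrays, 6, limits the precision, and no detection calls were used. All columns were matched to a sample.

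All 6 arrays entered 1 linear model in limma (version 3.58.1, under R 4.3.3), with lmFit and eBayes with trend. There were 3 residual degrees of freedom and 4.75 prior ones, and p values were adjusted after Benjamini-Hochberg over all 38382 probe sets, with a threshold of 0.05. The model was tested on simulated data with independent noise and with changes only in probe sets above the median intensity. That test therefore does not cover arrays that deviate together or changes in dimmer probe sets. A gene was represented by its probe set with the highest mean log2 intensity. Group means are given with n = 2, and the SE is that of limma. Python 3.11.15 with numpy 2.4.6 and pandas 2.3.3 served for the tables, and matplotlib 3.10.9 for the figures.

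The members, lists and markers were chosen with earlier results of these data known. From each list, the genes called in any comparison, the 4 largest and the 2 smallest 72 hr differences among genes above the median intensity were named. The 8 genes most alike were taken by Pearson r with the mean standardised profile. Alternatives were quantile normalization, equal array medians, floors of 32 and 16, only bright probe sets, the mean over a gene's probe sets, eBayes without trend, a replicate block and leaving out each array. Chromosomes of the members were looked up in RefSeq (GRCg7b). Sequences were not used here.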

Additional observations from a re-analysis of the deposited data

Results flagged for a closer look

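For 3 of the 10 genes the effects at 48 and 72 hrs differed by limma's test of 72 against 48 hrs over all 6 arrays. MKI67 was higher at 72 than at 48 hrs by 5.53 on the log2 scale, CKAP2 by 3.32 and FAM83D by 3.45. None of the 3 was called with values under 32 set to 32, without the intensity trend or with any 1 array left out. Each was higher on both 72 hr arrays than on both 48 hr arrays. The genes were selected on values of the 72 hr arrays, so these differences are a description.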

How the results depend on the processing

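Limma called 3 of the 24 probe sets at 72 hrs over control and 3 over 48 hrs (MKI67, CKAP2 and FAM83D in both). Under a floor of 32 both counts were 0, and without the intensity trend both were 0. Under a floor of 16 both were 1 (ANLN). Over control that call was for another probe set than the brightest of ANLN, which had an adjusted p of 0.827 by limma under the floor of 16. Leaving out any 1 of the 6 arrays gave 0 in both comparisons, where a lone array was assumed to vary like the other groups. With only bright probe sets the counts were 4 (NUSAP1, CKAP2, FAM83D and PRC1) and 2 (CKAP2 and FAM83D). With the replicate block they were 4 (PRC1 added) and 3. Replicate numbers are not settled by the labels, and same-numbered arrays deviated together with correlations of 0.29 to 0.57 between groups over 9320 probe sets. No setting called any of the 24 at 48 hrs. The 72 hr median of 2.65 was 1.74 under a floor of 32, 1.94 with the mean over a gene's probe sets and 2.35 to 2.95 without 1 array. The 48 hr median of 0.49 was 0 under both floors and -0.17 to 0.80 without 1 array, with the sign turned without control replicate 1. The 4 genes above both controls at 48 hrs were 2 under a floor of 32 and 4 to 8 without 1 array, with 8 without control replicate 2. Apart from the effect of fewer arrays and of the floors' own construction, the cause was not tested. At 72 hrs 10 genes were above both controls with the mean over probe sets, a setting for which no share of all genes was computed. Of 330 values of single genes under the alternatives, 250 kept their direction and side of the threshold, 48 (MKI67, CKAP2 and FAM83D) lost their call, 14 went to 0 under a floor, 9 moved with the mean over probe sets and 9 turned sign, none of them called. These 330 values leave out the fits without the intensity trend, with only bright probe sets and with the replicate block. Only MKI67, CKAP2 and FAM83D had a call to lose, at 72 hrs over control and over 48 hrs. For the mean over probe sets no adjusted p was computed, so no side of the threshold was compared there. With that mean the sign turned for CEP55 at 48 hrs (0.17) and ECT2 between 48 and 72 hrs (-0.33). Without 1 array, the 48 hr difference lay from -0.53 to 0.33 for FAM83D, from -0.50 to 1.41 for ECT2 and from -0.62 to 0.24 for RACGAP1, and that of ECT2 from -0.40 to 1.51 at 72 hrs and from -0.62 to 0.81 between 48 and 72 hrs. The dimness of 13 of the 24 probe sets limits what ECT2, CEP55 and most ASPM probe sets can show.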

Other observations

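A probe set outside the platform's annotation used here is listed as ASPM by the study. Its log2 intensity was 2.68 and 3.47 in control, 2.94 and 3.11 at 48 hrs, and 6.64 and 6.17 at 72 hrs. It differed from control by -0.05 at 48 hrs, where its arrays lay between the controls, and by 3.33 (SE 0.46) at 72 hrs. Limma did not call the 72 hr difference (adjusted p = 0.083 by limma). Both 72 hr arrays were over 32, while 1 was for the brightest ASPM probe set described above.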
